A study of Homo sapiens with 183 samples.

Results

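CB-6644 is an allosteric inhibitor of the ATPase activity of RUVBL1 and RUVBL2, a pair of AAA+ proteins that form a joint hexameric ring. A-375 is an established human cutaneous melanoma line that carries activated BRAF. The libraries described here are the 4 parental A-375 libraries labelled with 24 h of CB-6644 and the 4 labelled with 24 h of DMSO, the solvent control, out of 183 samples in the series. The table held 19875 gene names, and 13249 of them had a mean of at least 1 TPM over these 8 libraries and made up the genes analysed. RNA abundance was deposited as TPM, a transcript's length-corrected share of its library, from poly-A selected, single-end RNA-seq. All 8 libraries share one cell line, one time point and one labelled batch, and the labels do not say whether replicates were separate cultures, so the p-values below measure only the spread between these samples. TPM is a share of each library's RNA, so less RNA per cell and fewer cells cannot be told apart, and neither can be seen in it. The same table also held T84 colorectal carcinoma, H1048 small cell lung carcinoma and RH30 rhabdomyosarcoma cells, each with 4 CB-6644 and 4 DMSO libraries at 24 h, and these serve only as the comparison in a later paragraph.

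RUVBL1 and RUVBL2 are scaffolds for the INO80, SRCAP and TIP60 chromatin complexes, and with the R2TP cofactors they help HSP90 assemble PIKK kinases, RNA polymerases and snoRNPs. In melanocytes and melanoma, SOX10 and MITF drive the lineage genes and the MAPK pathway downstream of BRAF drives growth. In the p53 pathway, stress raises CDKN1A, which halts the cycle, MDM2, which limits the response, and a set of death and repair genes.

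The label of a melanoma line was checked against lineage and foreign markers. SOX10 was at 230.7 to 237.8 TPM and MIA at 305 to 324 TPM in the DMSO libraries, and PAX3 and CSPG4 were also measured at 9.44 to 10.7 and 108 to 117 TPM. Pigment genes were at or near 0 in the same controls, with TYR listed at 0 in all 8 libraries, TYRP1 at most at 0.206 TPM, DCT at most at 0.0582 TPM and MLANA at 1.06 to 1.41 TPM. These controls therefore carried lineage regulators with little pigment machinery. Of the 13 colorectal markers the defining CDX1, CDX2 and KRT20 reached at most 0.245 TPM in any library, although KRT18 and KRT8 were abundant, and the list summed to 655 to 737 TPM in the controls and 518 to 553 TPM with CB-6644. Of the 14 myogenic markers MYF5 was at 0 in every library and MYOD1 and MYOG reached at most 0.147 TPM, and the list summed to 6.27 to 7.53 TPM and 9.29 to 10.98 TPM in the same order. The 10 tuft cell markers summed to 4.22 to 5.90 TPM in the controls and 6.72 to 7.66 TPM with CB-6644. Keratinocyte markers summed to 51.8 to 58.0 and 35.9 to 39.8 TPM, leukocyte markers to 11.5 to 14.9 and 20.2 to 21.2 TPM, endothelial markers to 2.73 to 2.89 and 4.68 to 6.04 TPM, and fibroblast markers to 10.2 to 11.9 and 5.84 to 7.24 TPM. The rise in the leukocyte sum was led by CD14, a monocyte receptor, which went from 0.554 ± 0.0704 to 5.06 ± 0.566 TPM (log2 fold change 1.96 ± 0.09, adjusted p = 2.56e-09) while CD3E reached at most 0.0617 TPM. The part of these transcripts in the results below was not tested.

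In the comparison of CB-6644 with DMSO, 6821 of the 13249 genes rose and 3930 fell (limma on log2(TPM + 1), Benjamini-Hochberg adjusted p under 0.05, two-sided). These are 51.5% and 29.7% of the genes tested, or 81.1% together, and in 48.0% and 27.5% of genes all 4 treated libraries lay above or below all 4 controls, so a call alone is common here and each group below is read against those shares. Changes of at least 2-fold past the same threshold were rarer, with 1212 genes higher (9.15%) and 350 lower (2.64%). The median log2 fold change of all tested genes was 0.16, and from 12573 to 12663 genes reached 1 TPM in the DMSO libraries against 13526 to 13605 in the CB-6644 libraries. When the libraries were rescaled by the median of their ratios, 4803 genes rose and 5817 fell, so that 45.2% of calls were higher in place of 63.4%. In that rescaling 898 called genes turned direction, none of them changed by more than 0.22 on the log2 scale, and counts of risen and fallen members are therefore given both ways below, with the rescaled counts in parentheses. The percentages of all tested genes set beside lists below are those before rescaling. A rescaled count has to be read against the 4803 risen and 5817 fallen of 13206 genes tested after rescaling. Replicate libraries correlated at Pearson r of 0.997 or more over genes. The controls nevertheless fell into 2 pairs in part of the genes, since in 218 tested genes DMSO libraries 1 and 2 both lay above or both below libraries 3 and 4 with means at least 1.5-fold apart. With libraries 1 and 2 left out, 6632 genes rose and 3808 fell, and with libraries 3 and 4 left out 6782 rose and 3629 fell.

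**Figure D1:**
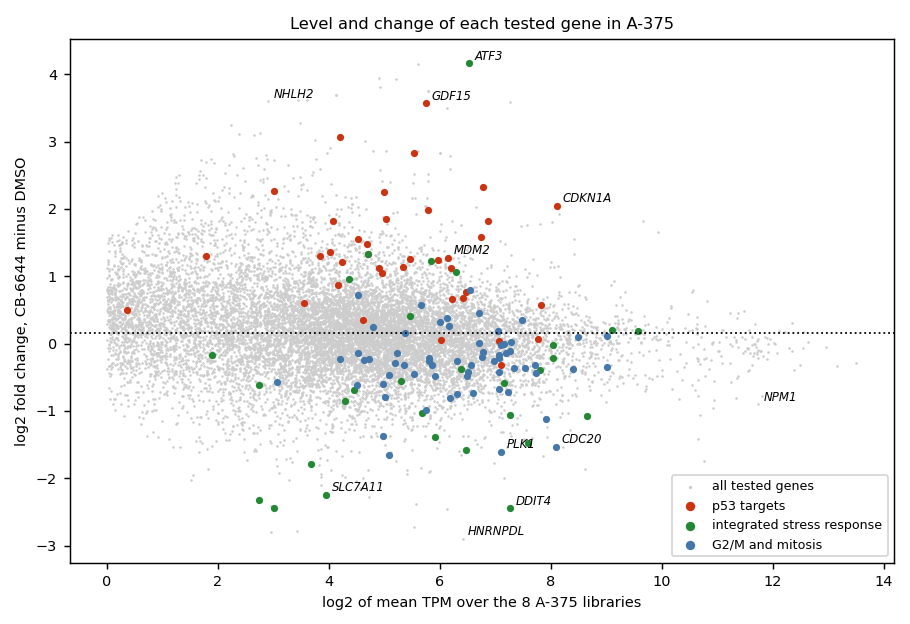
Log2 of the mean TPM over the 8 A-375 libraries (x axis) against the log2 fold change with CB-6644 (y axis) for the 13249 tested genes in grey, with p53 targets in red, integrated stress response genes in green and G2/M and mitosis genes in blue. The dotted line is the median of all genes at 0.16, the red points lie mostly above it, and the blue and green points lie mostly below it, with ATF3 as the green point at the top.

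Transcripts of the compound's targets moved little in the values as deposited. RUVBL1 read 238, 233, 218 and 224 TPM in the DMSO libraries and 204, 198, 193 and 199 TPM in the CB-6644 libraries, and all 4 treated libraries lay below all controls. Its log2 fold change (± SE) was -0.20 ± 0.03, adjusted p = 1.03e-04, and with rescaled libraries it was -0.42 (limma, adjusted p = 4.38e-07). RUVBL2 read 276, 271, 256 and 247 TPM in the DMSO libraries and 258, 257, 266 and 254 TPM in the CB-6644 libraries, and the groups overlapped. The log2 fold change of RUVBL2 was -0.02 ± 0.04, adjusted p = 0.618, but with rescaled libraries it was -0.24 with an adjusted p of 1.51e-04, so whether RUVBL2 is called depends on the scaling. It was 0.04 (adjusted p = 0.215, limma) with DMSO libraries 1 and 2 left out and -0.08 (adjusted p = 0.0213) with libraries 3 and 4 left out.

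Among 17 genes of R2TP, its TTT adaptors and the prefoldin-like partners, 6 rose and 8 fell (4 and 11 after scaling). The shares over all tested genes, for this list and the PIKK genes below, were 51.5% higher and 29.7% lower. TELO2, the adaptor that carries PIKK kinases to the chaperone, rose from 23.3 ± 1.49 to 50.7 ± 3.07 TPM (mean ± SD, n = 4 libraries a group, as in all pairs below), and PDRG1, a prefoldin-like subunit, rose from 42.2 ± 2.93 to 94.9 ± 5.99 TPM. WDR92, an R2TP partner, rose from 11.4 ± 0.730 to 22.97 ± 1.43 TPM. ECD, an adaptor that binds R2TP, fell from 43.2 ± 2.25 to 22.7 ± 0.863 TPM, and the chaperone HSP90AB1 fell from 2028 ± 23.2 to 1177 ± 6.72 TPM. HSP90AA1 fell by 0.55 and PFDN2, a prefoldin subunit, fell by 0.77 on the log2 scale. The mixed directions left the median of the list at -0.07, against 0.16 over all tested genes. Of the 6 PIKK genes, 4 rose and 0 fell (2 and 3 after scaling), and ATR, the kinase of the replication checkpoint, changed by 0.62 on the log2 scale, from 21.7 ± 0.457 to 34.02 ± 1.44 TPM.

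Chromatin complex subunits fell more than they rose. Of 29 INO80, SRCAP and TIP60 subunits 6 rose and 18 fell (3 and 24 after scaling), against 51.5% of all tested genes higher and 29.7% lower. Their median log2 fold change was -0.26, against 0.16 over all tested genes. KAT5, the acetyltransferase of TIP60, read 41.3, 43.3, 40.4 and 41.4 TPM in the DMSO libraries and 10.03, 11.3, 12.3 and 8.91 TPM in the CB-6644 libraries (log2 fold change -1.88 ± 0.08, adjusted p = 1.51e-09). ING3, which reads methylated histone H3 for the same complex, fell from 31.6 ± 2.38 to 7.29 ± 0.922 TPM (log2 fold change -1.98 ± 0.08, adjusted p = 1.55e-09). The treated libraries of both genes lay far below every control. MCRS1 of INO80 and YEATS4, a reader shared by SRCAP and TIP60, fell from 90.1 ± 2.88 to 37.1 ± 1.003 TPM and from 61.9 ± 2.82 to 28.4 ± 1.27 TPM, log2 fold changes of -1.26 and -1.096. ZNHIT1, a subunit of SRCAP, rose from 96.8 ± 1.74 to 143 ± 1.71 TPM, and MBTD1 of TIP60 and NFRKB of INO80 also rose, by 0.50 and 0.40 on the log2 scale.

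POLR2A, the catalytic subunit of RNA polymerase II, rose the most of the polymerase genes. It read 122, 122, 114 and 111 TPM in the DMSO libraries and 445, 449, 455 and 445 TPM in the CB-6644 libraries (log2 fold change 1.93 ± 0.03, adjusted p = 6.26e-12), and no treated library came near the controls. The other 16 genes of the polymerase and its assembly list changed by less, from -0.59 for POLR2H to 0.69 for POLR2L, a small subunit shared with other polymerases. Within the list of 17, 12 rose and 3 fell (7 and 6 after scaling), against 51.5% of all tested genes higher and 29.7% lower. The count of rises depends on scaling, while POLR2A rose both ways, by 1.71 after scaling. The assembly GTPases GPN3 and GPN1 changed by 0.58 and 0.46 on the log2 scale.

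Targets of p53 rose together. CDKN1A, which encodes the cyclin-dependent kinase inhibitor p21 at chr6:36676463-36687332 (GRCh38.p14), read 107, 109.8, 106 and 108 TPM in the DMSO libraries and 448, 452, 445 and 443 TPM in the CB-6644 libraries, and MDM2, a ubiquitin ligase at chr12:68808172-68850686, read 39.7, 41.6, 40.7 and 41.97 TPM in the DMSO libraries and 99.6, 103, 102 and 99.8 TPM in the CB-6644 libraries. The groups were fully apart in both genes, with log2 fold changes of 2.04 ± 0.02, adjusted p = 2.99e-13 for CDKN1A and 1.28 ± 0.03, adjusted p = 2.08e-11 for MDM2. Of 39 targets in the list 38 were tested, and 34 rose and 1 fell (34 and 4 after scaling), against 51.5% of all tested genes higher and 29.7% lower. The median log2 fold change was 1.27, and 26 of the 38 rose at least 2-fold, against 9.15% of all tested genes.

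The largest rise among the targets was GDF15, a secreted stress cytokine at chr19:18386158-18389176. It read 7.80, 7.21, 7.06 and 7.80 TPM in the DMSO libraries and 95.6, 101, 105 and 96.4 TPM in the CB-6644 libraries, a log2 fold change of 3.57 ± 0.04, adjusted p = 6.03e-13. ACER2, an alkaline ceramidase, rose from 3.16 ± 0.680 to 33.6 ± 3.21 TPM, and BTG2, an antiproliferative gene, rose from 10.7 ± 0.815 to 82.3 ± 1.73 TPM. PMAIP1, which encodes the BH3-only death protein NOXA, rose from 35.9 ± 2.81 to 184 ± 3.26 TPM. These were the 4 largest rises of the list, at 3.57, 3.07, 2.83 and 2.33 on the log2 scale. CCNG1, a cyclin and p53 target, went the other way, from 153 ± 13.7 to 121 ± 7.53 TPM (log2 fold change -0.32 ± 0.06, adjusted p = 4.77e-04). PLK2, AEN and BAX did not pass the threshold, at 0.03, 0.05 and 0.06, and were named after their values were seen.

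**Figure D2:**
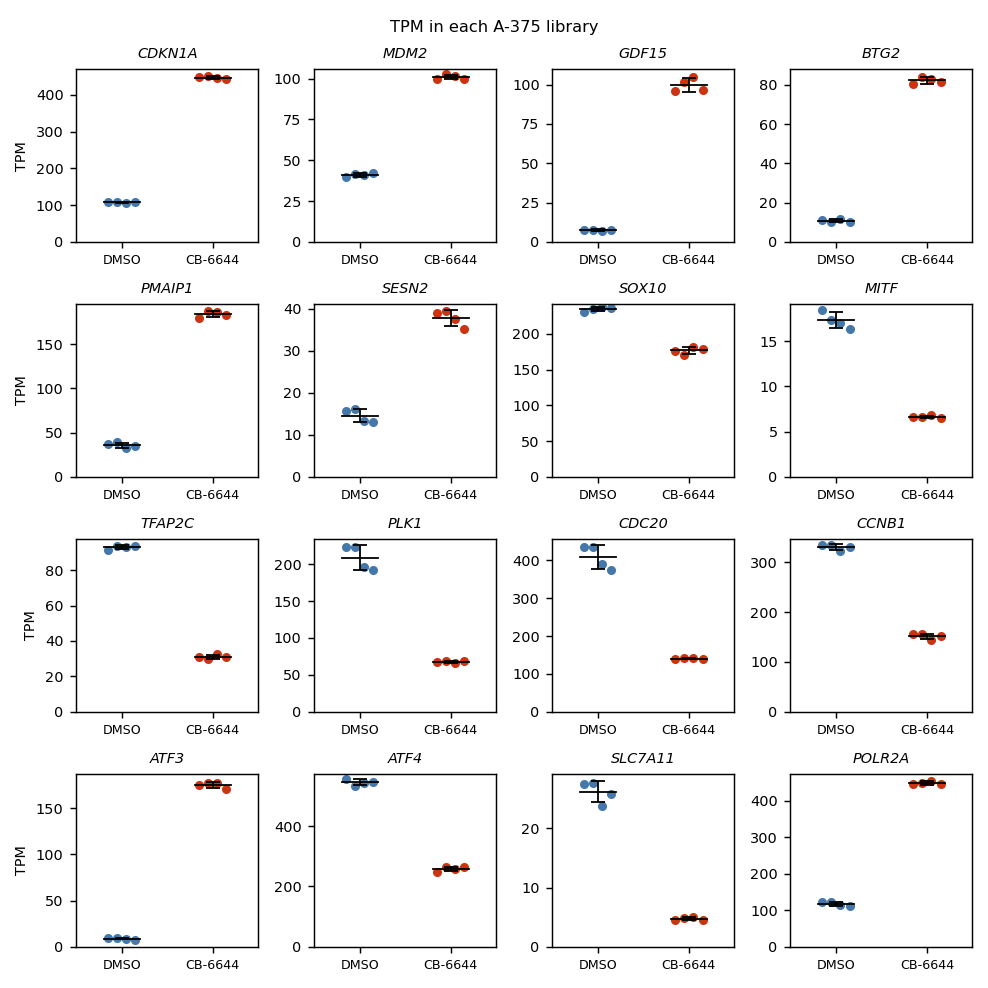
TPM on linear axes that start at 0 in each of the 4 DMSO (blue) and 4 CB-6644 (red) A-375 libraries for 16 genes, with bars at the mean and the SD over 4 libraries. No DMSO library overlaps a CB-6644 library in any panel, and CDKN1A, MDM2, GDF15, BTG2, PMAIP1, SESN2, ATF3 and POLR2A are higher with CB-6644 while the others are lower.

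The BCL2 family, which sets the threshold for mitochondrial death, was read as another list, of 14 tested genes. In it 8 rose and 2 fell (6 and 6 after scaling), against 51.5% of all tested genes higher and 29.7% lower. Besides PMAIP1, the BH3-only genes BIK and BCL2L11 rose, from 1.82 ± 0.653 to 8.87 ± 1.43 TPM and from 5.32 ± 0.665 to 16.95 ± 1.65 TPM. BBC3, which encodes PUMA, rose from 9.16 ± 0.444 to 14.4 ± 0.612 TPM. Both PMAIP1 and BBC3 are also in the p53 list, so their rises are not separate from it. MCL1, the antiapoptotic partner of NOXA, fell from 254 ± 6.70 to 169 ± 4.32 TPM (log2 fold change -0.58 ± 0.03, adjusted p = 4.67e-09).

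Most mitotic genes fell. Of 63 G2/M genes 13 rose and 46 fell (7 and 52 after scaling), against 51.5% of all tested genes higher and 29.7% lower. Their median log2 fold change was -0.26, and 5 members fell at least 2-fold, against 2.64% of all tested genes. PLK1, the polo-like kinase of mitotic entry, read 223, 224, 196 and 192 TPM in the DMSO libraries and 67.4, 69.4, 65.5 and 68.1 TPM in the CB-6644 libraries (log2 fold change -1.61 ± 0.05, adjusted p = 2.06e-10). CDC20, the activator of the anaphase-promoting complex, read 436, 436, 389.9 and 374.6 TPM in the DMSO libraries and 139, 141, 141 and 139.8 TPM in the CB-6644 libraries (log2 fold change -1.54 ± 0.05, adjusted p = 1.58e-10). In both genes DMSO libraries 1 and 2 were higher than 3 and 4, and the treated libraries were lower than all of them. NCAPH, a condensin subunit, fell from 51.8 ± 1.39 to 15.8 ± 0.663 TPM, KIF20B, a kinesin of cytokinesis, fell from 45.7 ± 1.35 to 17.1 ± 0.488 TPM, and the mitotic cyclin CCNB1 fell from 330.5 ± 6.02 to 152 ± 4.99 TPM. Members that rose included NEK2, a centrosome kinase, from 67.9 ± 1.16 to 119 ± 4.68 TPM, and the phosphatase CDC25C, from 17.1 ± 0.696 to 28.7 ± 1.11 TPM. MKI67, NUSAP1, KIF22 and CDK1 did not pass the threshold, with log2 fold changes between -0.02 and 0.03, and were named for that.

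Promoter sequence of 3 fallen mitotic genes is shown because the list shares letters at its start sites. Below are the 250 bases before each RefSeq start on GRCh38.p14, read 5′ to 3′ on the gene's strand, with CCAAT (the NF-Y box) and TTTGAA (the cell cycle homology region) in capitals on either strand. They lie at chr16:23678639-23678888 on the plus strand for PLK1, chr1:43358731-43358980 on the plus strand for CDC20 and chr10:89701340-89701589 on the plus strand for KIF20B, where CCAAT is present and TTTGAA is not in these 250 bases.
PLK1: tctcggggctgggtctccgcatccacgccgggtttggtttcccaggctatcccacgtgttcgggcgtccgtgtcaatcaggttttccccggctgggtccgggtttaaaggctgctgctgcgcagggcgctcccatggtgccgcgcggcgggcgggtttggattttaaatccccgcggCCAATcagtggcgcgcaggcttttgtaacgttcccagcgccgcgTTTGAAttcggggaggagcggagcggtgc
CDC20: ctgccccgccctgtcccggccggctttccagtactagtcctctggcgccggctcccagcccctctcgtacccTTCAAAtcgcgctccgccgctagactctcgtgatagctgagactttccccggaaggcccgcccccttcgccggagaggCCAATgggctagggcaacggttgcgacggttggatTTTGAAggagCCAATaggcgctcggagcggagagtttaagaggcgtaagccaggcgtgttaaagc
KIF20B: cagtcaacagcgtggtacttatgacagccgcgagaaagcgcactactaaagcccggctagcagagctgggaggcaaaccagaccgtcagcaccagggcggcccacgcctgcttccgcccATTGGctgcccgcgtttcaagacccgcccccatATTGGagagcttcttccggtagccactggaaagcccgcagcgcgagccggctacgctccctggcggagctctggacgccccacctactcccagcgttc
In the window from 250 bases before to 50 after the start, CCAAT was in 76.4% and TTTGAA in 65.5% of the 55 mitotic promoters that could be matched, against 37.1% and 9.8% of 10613 promoters of tested genes. In that window the letters were not confined to fallen members. KIF4A and HMMR, at log2 fold changes of 0.32 and 0.25, held both. NCAPH and CCNB1, which fell, held CCAAT without TTTGAA. The matches describe these letters only, and say nothing of which factor was bound in these cells.

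Among 59 replication genes 26 rose and 21 fell (17 and 34 after scaling), counts near the shares over all tested genes (51.5% higher and 29.7% lower). RRM2, the small subunit of ribonucleotide reductase, fell from 229.5 ± 22.4 to 56.5 ± 1.35 TPM (log2 fold change -1.998 ± 0.06, adjusted p = 1.25e-10), and MCM7, a subunit of the replicative helicase, fell from 358 ± 20.7 to 192 ± 6.06 TPM. GINS4, another part of that helicase, rose from 16.6 ± 0.631 to 56.8 ± 1.92 TPM, and the origin subunit ORC6 rose from 55.8 ± 5.90 to 134 ± 4.32 TPM. CCNE1, the cyclin of the G1/S step, rose from 17.2 ± 1.35 to 40.02 ± 3.73 TPM. The median of the list was 0.01 as deposited, against 0.16 over all tested genes, and -0.22 after scaling, against -0.05. It was below the median of all genes both ways, and only its sign depended on the scaling. In homologous recombination and Fanconi genes 21 rose and 10 fell (16 and 14 after scaling) of 34, to be set against the same shares. NBN, the sensor subunit with MRE11, fell from 77.3 ± 2.09 to 29.4 ± 1.86 TPM and the checkpoint kinase CHEK2 fell from 19.9 ± 1.36 to 7.80 ± 0.722 TPM, whereas the translocase RAD54L rose from 26.6 ± 0.809 to 56.8 ± 2.73 TPM.

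The Winnepenninckx melanoma metastasis list, which the study itself applied to these libraries and which is therefore not independent evidence, holds 160 genes, many of them proliferation genes. Of 151 tested, 52 rose and 80 fell (30 and 106 after scaling), against 51.5% of all tested genes higher and 29.7% lower. The list had a median log2 fold change of -0.12. Falls at the top of the list were RRM2, NCAPH, CCNB1 and RBMX, an RNA-binding protein, which fell from 393 ± 13.3 to 185 ± 1.85 TPM. Rises were led by PCDH17, a protocadherin, from 3.35 ± 0.208 to 15.1 ± 0.388 TPM, and PSMC3IP, a recombination cofactor, from 48.3 ± 2.21 to 133 ± 2.84 TPM. Relative to the median of all tested genes the list was shifted by -0.28.

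Lineage regulators of the melanocyte moved in different directions. SOX10 read 231, 235, 238 and 237 TPM in the DMSO libraries and 176, 170.3, 182 and 179 TPM in the CB-6644 libraries (log2 fold change -0.41 ± 0.03, adjusted p = 4.91e-08). MITF, the master regulator of the pigment lineage, read 18.5, 17.3, 16.98 and 16.4 TPM in the DMSO libraries and 6.65, 6.58, 6.79 and 6.48 TPM in the CB-6644 libraries (log2 fold change -1.26 ± 0.05, adjusted p = 8.90e-10). Neither gene had a treated library inside the range of the controls. The AP-2 factor TFAP2C fell from 93.03 ± 1.21 to 30.9 ± 1.16 TPM and TFAP2B fell from 8.85 ± 1.33 to 2.25 ± 0.505 TPM, while TFAP2A rose from 10.2 ± 0.215 to 15.6 ± 1.33 TPM. PAX3, which acts upstream of MITF in the lineage, rose from 10.2 ± 0.558 to 16.2 ± 0.597 TPM.

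Of the 37 melanocyte genes 25 were tested, and 14 rose and 10 fell (12 and 10 after scaling), against 51.5% of all tested genes higher and 29.7% lower. RAB27A, a GTPase of melanosome transport, rose from 5.05 ± 0.188 to 12.1 ± 0.618 TPM, and EDNRB, the endothelin receptor of melanoblasts, rose from 9.48 ± 0.702 to 14.7 ± 1.099 TPM. S100B, a marker of melanoma, read 42.9, 40.3, 55.2 and 58.01 TPM in the DMSO libraries and 25.5, 24.8, 27.00 and 28.3 TPM in the CB-6644 libraries (log2 fold change -0.86 ± 0.10, adjusted p = 1.29e-05), with DMSO libraries 3 and 4 above libraries 1 and 2 and all treated libraries below both pairs. PMEL, a melanosome structural protein, was higher with treatment but at a low level, from 0.914 ± 0.297 to 3.25 ± 0.331 TPM (log2 fold change 1.16 ± 0.11, adjusted p = 2.12e-06), and was named after its values were seen. In the neural crest-like list 4 rose and 9 fell (4 and 9 after scaling) of 13 tested genes, with a median of -0.55. NRG1, a ligand of ERBB receptors, fell from 10.2 ± 0.985 to 2.70 ± 0.313 TPM, its receptor ERBB3 fell from 115 ± 9.34 to 66.2 ± 2.02 TPM, and the crest factor FOXD3 fell from 7.15 ± 0.823 to 2.48 ± 0.284 TPM. NGFR, a neurotrophin receptor, rose from 31.2 ± 1.51 to 57.96 ± 1.02 TPM, and GDNF, a neurotrophic ligand, rose from 3.15 ± 0.661 to 8.72 ± 0.682 TPM.

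Of 29 genes of the undifferentiated or invasive melanoma state 10 rose and 16 fell (7 and 19 after scaling). THBS1, a matrix thrombospondin, fell from 614 ± 26.4 to 168 ± 3.54 TPM (log2 fold change -1.87 ± 0.03, adjusted p = 6.31e-12), EGFR fell from 11.1 ± 0.803 to 4.08 ± 0.539 TPM, and the ligand WNT5A fell from 19.5 ± 0.678 to 7.70 ± 0.471 TPM. NT5E, the ectonucleotidase CD73, rose from 42.8 ± 1.73 to 94.4 ± 1.46 TPM. PLAUR, the urokinase receptor, and INHBA, an activin subunit, rose by 0.96 and 0.76 on the log2 scale. Of 17 YAP/TEAD targets 5 rose and 10 fell (3 and 13 after scaling), and ANKRD1, a target in wide use as a reporter of YAP, fell from 14.3 ± 0.881 to 1.23 ± 0.371 TPM, while CTGF rose by 0.40 and CYR61, another matricellular target, fell by 0.92 on the log2 scale. Integrin and matrix adhesion genes gave 15 rises and 13 falls of 30 (10 and 14 after scaling), against 51.5% of all tested genes higher and 29.7% lower. Among them SDC4, a syndecan, rose from 101 ± 2.48 to 349 ± 14.1 TPM, and the integrin subunit ITGB4 fell from 16.2 ± 2.60 to 3.199 ± 0.243 TPM.

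Most immediate early genes rose. ATF3, a stress-responsive bZIP repressor at chr1:212565407-212620777, read 9.48, 9.52, 8.67 and 7.78 TPM in the DMSO libraries and 176, 177, 178 and 171 TPM in the CB-6644 libraries (log2 fold change 4.17 ± 0.05, adjusted p = 6.03e-13), the largest rise of any tested gene that met the naming conditions. FOSB, an AP-1 subunit, read 2.23, 2.61, 1.77 and 2.08 TPM in the DMSO libraries and 24.02, 24.6, 26.2 and 23.5 TPM in the CB-6644 libraries (log2 fold change 3.02 ± 0.08, adjusted p = 5.42e-11). Treated libraries of both genes lay far above every control. FOS rose from 2.72 ± 0.578 to 11.9 ± 0.953 TPM and EGR3, a zinc finger factor of the same class, rose from 7.07 ± 0.432 to 25.5 ± 0.849 TPM. JUND, by contrast, fell from 60.9 ± 2.98 to 25.1 ± 2.60 TPM (log2 fold change -1.25 ± 0.07, adjusted p = 1.07e-08). Of 19 tested members 13 rose and 5 fell (13 and 6 after scaling), with a median of 0.95. Of 26 MAPK output and feedback genes 11 rose and 13 fell (8 and 16 after scaling). Both lists are to be set against 51.5% of all tested genes higher and 29.7% lower. IL11, a cytokine, rose from 20.04 ± 2.36 to 125 ± 2.58 TPM and the receptor EPHA2 rose from 194 ± 6.05 to 490.3 ± 5.43 TPM, while the ETS factors ETV1 and ETV4 fell from 31.1 ± 1.66 to 13.4 ± 0.568 TPM and from 154 ± 4.44 to 98.8 ± 2.26 TPM. The feedback genes DUSP4 and SPRY2 fell by 0.61 and 0.53 on the log2 scale.

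JUND and PPP1R15A, which hold a cyclic AMP response element, TGACGTCA, in the bases before their starts, are shown because they moved in opposite directions. JUND fell, and PPP1R15A, a phosphatase subunit of the stress response, rose from 50.6 ± 2.17 to 106 ± 3.51 TPM. The windows are chr19:18281623-18281872 on the minus strand and chr19:48872171-48872420 on the plus strand, with the element in capitals.
JUND: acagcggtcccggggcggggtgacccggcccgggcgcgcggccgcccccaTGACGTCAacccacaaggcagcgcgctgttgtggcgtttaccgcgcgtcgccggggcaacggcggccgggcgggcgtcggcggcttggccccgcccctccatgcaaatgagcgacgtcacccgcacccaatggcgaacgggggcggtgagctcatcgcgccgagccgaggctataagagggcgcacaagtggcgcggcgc
PPP1R15A: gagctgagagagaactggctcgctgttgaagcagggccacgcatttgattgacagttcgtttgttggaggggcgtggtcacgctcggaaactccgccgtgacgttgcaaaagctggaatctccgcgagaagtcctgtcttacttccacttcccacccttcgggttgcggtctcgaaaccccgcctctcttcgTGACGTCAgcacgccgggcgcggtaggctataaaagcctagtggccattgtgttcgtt
TGACGTCA was in 3.3% of the 10613 promoters of tested genes, in 3.9% of those of risen genes and in 2.8% of those of fallen genes.

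The integrated stress response list, genes that ATF4 induces when translation initiation is curbed, mostly fell. Of 29 tested members 8 rose and 19 fell (6 and 21 after scaling), against 51.5% of all tested genes higher and 29.7% lower. Their median log2 fold change was -0.59, and 11 fell at least 2-fold, against 2.64% of all tested genes. ATF4 itself, named after its values were seen, read 556, 534, 544 and 547 TPM in the DMSO libraries and 248, 263, 256 and 263 TPM in the CB-6644 libraries (log2 fold change -1.08 ± 0.03, adjusted p = 2.79e-11). SLC7A11, the cystine importer, read 27.4, 27.7, 23.8 and 25.8 TPM in the DMSO libraries and 4.52, 4.92, 4.96 and 4.54 TPM in the CB-6644 libraries, and SLC6A9, a glycine transporter, read 14.7, 14.4, 13.7 and 14.6 TPM in the DMSO libraries and 1.87, 1.70, 1.83 and 1.85 TPM in the CB-6644 libraries. Their log2 fold changes were -2.24 ± 0.06, adjusted p = 5.42e-11 for SLC7A11 and -2.45 ± 0.05, adjusted p = 1.90e-11 for SLC6A9, and the groups did not overlap. DDIT4, an inhibitor of mTORC1 signalling, fell from 259.9 ± 7.58 to 46.9 ± 3.08 TPM, and JDP2, a bZIP factor, fell from 11.8 ± 1.33 to 1.55 ± 0.196 TPM. Members that rose were headed by ATF3, with SESN2, a leucine sensor and also a p53 target, from 14.5 ± 1.55 to 37.8 ± 1.93 TPM, and ATF5, from 33.7 ± 1.12 to 80.3 ± 3.54 TPM. ATF3 is also in the immediate early list and SESN2 in the p53 list, so these lists are not separate sets of genes.

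Promoter letters were also counted over all tested genes, in the window from 250 bases before to 50 after the start. TGATGCAA, the C/EBP-ATF composite element, was in 0.5% of all 10613 promoters, in 14 of 5388 promoters of risen genes (0.3%) and in 24 of 3222 of fallen genes (0.7%). Among genes changed at least 2-fold it was in 2 of 911 promoters of risen genes (0.2%) and in 5 of 284 of fallen genes (1.8%), and these shares were not tested. Of 11 motifs searched on both strands, none of which contains another, the shares in risen, fallen and all promoters were 9.6%, 10.5% and 10.1% for CACGTG, 0.9%, 0.9% and 0.9% for TCACATGA, 18.9%, 19.6% and 19.1% for CCGGAAG, and 69.7%, 69.8% and 69.0% for GGGCGG. For CCAAT they were 38.5%, 36.1% and 37.1%, for TTTGAA 9.0%, 11% and 9.8%, for TTTCCCGC 2.6%, 2.3% and 2.5%, for TTTGGCGC 1.1%, 1.1% and 1.1%, and for TGACTCA 3.4%, 2.9% and 3.1%.

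Other stress and chaperone lists had smaller median changes than the -0.59 of the integrated stress response. The medians were -0.415 for CCT, -0.33 for heat shock, -0.19 for NRF2 and 0.19 for endoplasmic reticulum genes, against 0.16 over all tested genes. Of 20 tested endoplasmic reticulum genes 12 rose and 5 fell (9 and 9 after scaling), against 51.5% of all tested genes higher and 29.7% lower. XBP1, the secretory stress factor, fell from 68.3 ± 1.70 to 22.3 ± 1.28 TPM. Of the 8 CCT chaperonin subunits 1 rose and 6 fell (0 and 8 after scaling), and CCT2 fell from 597 ± 6.99 to 395 ± 9.81 TPM. Only 8 of 24 heat shock genes could be tested because most have no row under their symbol, and 2 rose and 6 fell (2 and 6 after scaling), with STIP1, an HSP90 cochaperone, down from 434 ± 12.3 to 257 ± 4.29 TPM. NRF2 genes gave 7 rises and 11 falls of 20 (5 and 13 after scaling), of which OSGIN1 rose from 5.24 ± 0.603 to 16.6 ± 1.25 TPM and GCLM, a glutathione synthesis subunit, fell from 28.1 ± 0.989 to 14.9 ± 0.669 TPM.

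Ribosome production genes fell more often than they rose. Of 45 tested, 10 rose and 31 fell (3 and 36 after scaling), against 51.5% of all tested genes higher and 29.7% lower. NPM1, a nucleolar chaperone and one of the most abundant transcripts, fell from 4445 ± 48.9 to 2377 ± 58.6 TPM, EMG1, an rRNA methyltransferase, fell from 195 ± 13.9 to 56.4 ± 2.06 TPM, and the helicase DDX21 fell from 229.9 ± 5.74 to 136 ± 2.85 TPM. UTP18, a small-subunit processome protein outside that list, read 82.05, 80.5, 79.4 and 83.4 TPM in the DMSO libraries and 10.4, 12.01, 12.2 and 11.5 TPM in the CB-6644 libraries (log2 fold change -2.72 ± 0.05, adjusted p = 6.81e-12) and was among the 10 largest falls of all genes. Of 15 snoRNP proteins and assembly factors 3 rose and 5 fell (2 and 13 after scaling), the falls before scaling near the share of all tested genes. GAR1, of the H/ACA particle, fell from 92.1 ± 2.26 to 52.4 ± 1.36 TPM. MYC read 6.10, 6.51, 6.98 and 5.90 TPM in the DMSO libraries and 2.87, 2.78, 2.96 and 3.45 TPM in the CB-6644 libraries (log2 fold change -0.88 ± 0.07, adjusted p = 5.60e-07). Of 25 genes tested in the list of MYC, its partners and canonical targets 7 rose and 13 fell (2 and 20 after scaling), among them CAD, the pyrimidine synthesis enzyme, down from 74.5 ± 4.38 to 48.5 ± 0.649 TPM, and LDHA, lactate dehydrogenase, down from 1066 ± 16.5 to 737 ± 22.04 TPM. Without DMSO library 1 only 4 members of that list rose, as was the case without libraries 1 and 2, and without libraries 3 and 4 the count was 3.

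KLF5, the transcription factor at the centre of the wider study, read 76.4, 76.8, 75.5 and 73.8 TPM in the DMSO libraries and 68.98, 66.7, 68.1 and 65.97 TPM in the CB-6644 libraries in A-375, a log2 fold change of -0.16 ± 0.03, adjusted p = 1.79e-04. Of 14 tested KLF genes 2 rose and 11 fell (2 and 11 after scaling), against 51.5% of all tested genes higher and 29.7% lower. KLF10, a TGF-beta induced member, rose from 26.5 ± 0.855 to 72.3 ± 1.87 TPM. KLF9, a stress hormone target, fell from 25.8 ± 3.18 to 12.8 ± 0.898 TPM.

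Most antigen presentation and lysosome genes rose. Of 22 antigen presentation genes 18 rose and 3 fell (15 and 4 after scaling), with a median log2 fold change of 0.52. For this list and the lysosome list, the shares over all tested genes were 51.5% higher and 29.7% lower. HLA-B, a class I heavy chain, read 98.9, 99.6, 104 and 103 TPM in the DMSO libraries and 192, 193, 197 and 191 TPM in the CB-6644 libraries, and B2M, the light chain that pairs with it, rose from 1102 ± 65.2 to 1912 ± 30.4 TPM. CIITA, the class II transactivator, fell from 20.2 ± 1.31 to 9.50 ± 0.485 TPM. Of 27 lysosome and autophagy genes 19 rose and 3 fell (17 and 8 after scaling), with a median of 0.51, and without DMSO libraries 1 and 2 the falls numbered 6. NEU1, a lysosomal sialidase, rose from 20.04 ± 1.16 to 55.8 ± 2.67 TPM, MCOLN1, a lysosomal calcium channel, rose from 17.7 ± 1.26 to 34.5 ± 2.22 TPM, and the autophagy receptor SQSTM1 fell from 372 ± 12.7 to 218 ± 3.78 TPM.

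Of 36 interferon-stimulated genes tested, 16 rose and 13 fell (12 and 18 after scaling), counts near the shares over all tested genes (51.5% higher and 29.7% lower). IRF1 rose from 12.8 ± 1.47 to 40.3 ± 2.22 TPM and IFI6 rose from 30.6 ± 2.57 to 71.4 ± 3.41 TPM, while IFI44 fell from 35.8 ± 1.59 to 11.03 ± 0.368 TPM and IRF9 fell from 11.1 ± 0.975 to 5.76 ± 0.646 TPM. Of 23 NF-kB targets and chemokines 9 rose and 7 fell (6 and 12 after scaling). CXCL1, a neutrophil chemoattractant and melanoma growth factor, read 88.8, 78.3, 75.5 and 78.5 TPM in the DMSO libraries and 13.4, 13.6, 16.2 and 15.3 TPM in the CB-6644 libraries (log2 fold change -2.38 ± 0.07, adjusted p = 9.66e-11), and SOD2, mitochondrial superoxide dismutase, rose from 46.6 ± 2.49 to 98.8 ± 3.59 TPM. Among TGF-beta and BMP response genes 10 rose and 3 fell (9 and 6 after scaling) of 18, with 5 falls when DMSO library 3 was left out and 6 when libraries 3 and 4 were. ID2, an inhibitor of bHLH factors, read 3.58, 3.46, 1.95 and 2.32 TPM in the DMSO libraries and 53.6, 58.5, 58.02 and 58.4 TPM in the CB-6644 libraries (log2 fold change 3.95 ± 0.12, adjusted p = 2.27e-10), while SMAD6, a brake on BMP signalling, fell from 15.5 ± 1.28 to 4.12 ± 0.505 TPM.

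In metabolism, the size of several falls depended on which controls were used. SREBF1, a master regulator of lipid synthesis, read 69.01, 64.1, 91.1 and 94.6 TPM in the DMSO libraries and 19.9, 19.8, 23.6 and 21.5 TPM in the CB-6644 libraries (log2 fold change -1.84 ± 0.12, adjusted p = 4.45e-08). SCD, the desaturase, read 106, 102, 195 and 199 TPM in the DMSO libraries and 87.1, 86.7, 83.4 and 85.3 TPM in the CB-6644 libraries (log2 fold change -0.73 ± 0.20, adjusted p = 0.00523). INSIG1, a sterol sensor, read 12.4, 11.8, 23.6 and 25.5 TPM in the DMSO libraries and 8.99, 8.88, 11.4 and 9.39 TPM in the CB-6644 libraries (log2 fold change -0.79 ± 0.22, adjusted p = 0.00618). In all 3 genes DMSO libraries 3 and 4 were well above libraries 1 and 2, and every treated library was below every control. With DMSO libraries 1 and 2 left out the log2 fold changes were -2.08 for SREBF1, -1.19 for SCD and -1.27 for INSIG1, and with libraries 3 and 4 left out they were -1.61, -0.27 and -0.30, each still past the threshold. Of 12 tested fatty acid genes 1 rose and 8 fell (0 and 9 after scaling), with 2 rises when DMSO library 3 was left out, and with 3 rises and 5 falls when libraries 3 and 4 were. Of 22 cholesterol genes 12 rose and 4 fell (6 and 6 after scaling), with 8 falls when DMSO libraries 1 and 2 were left out, and IDI1, an isomerase of the pathway, rose from 46.5 ± 6.19 to 87.4 ± 3.71 TPM. Among 31 glycolysis and hypoxia genes 15 rose and 12 fell (12 and 17 after scaling). Over all tested genes the shares were 51.5% higher and 29.7% lower. NDRG1, a hypoxia and stress target, rose from 37.2 ± 0.843 to 98.3 ± 3.38 TPM, whereas VEGFA, the angiogenic growth factor, fell from 33.4 ± 0.759 to 17.1 ± 1.13 TPM and PDK1, the pyruvate dehydrogenase kinase, fell from 7.51 ± 0.173 to 2.93 ± 0.318 TPM.

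**Figure D3:**
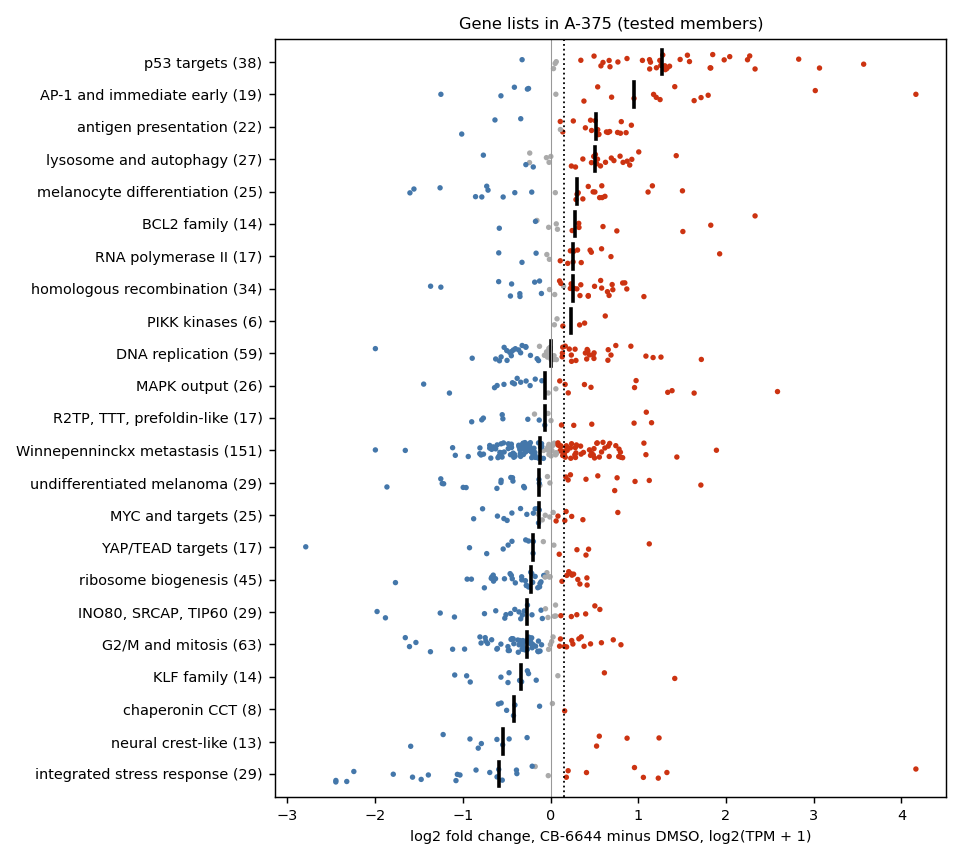
Log2 fold change with CB-6644 (x axis) of every tested member (points) of 23 gene lists (y axis, number tested in parentheses) in A-375, red for risen, blue for fallen and grey for genes that did not pass the threshold. Black ticks are list medians, which run from 1.27 for p53 targets to -0.59 for the integrated stress response, and the dotted line is the median of all tested genes at 0.16.

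Outside the lists, the largest rises included PGF, placental growth factor, from 3.13 ± 0.443 to 57.1 ± 3.27 TPM, VASN, a TGF-beta-binding membrane protein, from 3.69 ± 0.487 to 70.1 ± 5.30 TPM, and NPTX2, a pentraxin of synapses, from 0.993 ± 0.171 to 23.4 ± 1.62 TPM. The uncharacterised LOC112268238 rose from 4.32 ± 0.666 to 93.4 ± 1.85 TPM. Of the histone genes that ranked with them, HIST2H4A and HIST2H4B have identical values in every library, as do HIST2H3A and HIST2H3C, so reads could not be told apart between these copies, and each pair counts as 1 measurement, from 7.03 ± 2.18 to 103 ± 3.81 TPM for HIST2H4A and from 1.69 ± 0.561 to 33.4 ± 4.82 TPM for HIST2H3A. The largest fall was HNRNPDL, a regulator of splicing, which read 155, 151, 149 and 149 TPM in the DMSO libraries and 19.7, 18.9, 19.4 and 19.4 TPM in the CB-6644 libraries (log2 fold change -2.90 ± 0.03, adjusted p = 2.37e-13). OR51B4, an olfactory receptor gene, fell from 19.5 ± 1.75 to 2.01 ± 0.542 TPM, CPA4, a carboxypeptidase, fell from 118 ± 2.88 to 20.7 ± 0.496 TPM, and MAP2K6, a kinase upstream of p38, fell from 13.8 ± 0.815 to 1.76 ± 0.157 TPM.

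Whether these effects differ from those in other cells was tested as an interaction over all 32 libraries of the table, with 14250 genes tested. The A-375 effect was above the mean effect of T84, H1048 and RH30 in 4474 genes (31.4%) and below it in 4146 (29.1%). Against single lines the shares above and below were 29.7% and 28.6% for T84, 27.6% and 29.4% for H1048, and 32% and 27.5% for RH30. It was above each of the 3 lines as well as their mean in 1854 genes (13.0%) and below in 1832 (12.9%). Across genes, which are not independent replicates, the log2 fold changes of A-375 correlated at Pearson r of 0.62 with T84, 0.64 with H1048 and 0.57 with RH30, and no control library is shared between lines. The filter of this fit was on the mean over all 32 libraries, so a gene could pass through one line while hardly measured in another. In 10356 genes the mean was at least 1 TPM in each of the 4 lines, a limit chosen after the values were seen, and of these the A-375 effect was above the mean of the others in 3026 (29.2%) and below it in 3268 (31.6%). The values of single genes below are tested only within that set.

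Effects on p53 targets differed between lines. The median log2 fold change over the 38 targets was 1.27 in A-375, 0.31 in T84, 0.18 in H1048 and 0.40 in RH30, where the medians of all genes were 0.15, 0.12, 0.16 and 0.11. The A-375 effect was above the mean of the other lines in 36 of the 38 and below it in 0 (limma interaction), and in 28 and 0 of the 30 that were at 1 TPM or more in all 4 lines. CDKN1A rose in the other lines too, by 0.83 in T84, 1.59 in H1048 and 0.78 in RH30, and its effect in A-375 was 0.97 ± 0.04 (SE) above their mean. MDM2 had log2 fold changes of -0.03 in T84, -0.22 in H1048 and 0.04 in RH30, a difference of 1.35 ± 0.07 from A-375. GDF15 had log2 fold changes of -0.46 in T84, -0.51 in H1048 and 0.70 in RH30, a difference of 3.66 ± 0.08.

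The immediate early list had medians of 0.95 in A-375, -0.08 in T84, 0.34 in H1048 and 0.09 in RH30, and the A-375 effect was above the mean of the others in 14 of 19 genes and below it in 3, or 10 and 3 of the 15 measured in all 4 lines. ATF3 rose by 1.25 in T84, 1.32 in H1048 and 1.58 in RH30, and the A-375 effect was 2.78 ± 0.06 larger than their mean. The integrated stress response list had medians of -0.59, -0.21, -0.10 and -0.19 in the same order of lines, with 7 genes above and 20 below of 29, or 7 and 16 of the 24 measured in all 4 lines. For mitotic genes the medians were -0.26, 0.02, -0.28 and -0.02, with the H1048 median close to that of A-375. Against the mean of the others 10 genes were above and 37 below of 63, all of them measured in the 4 lines. Against single lines 5 were above and 45 below for T84, 19 and 21 for H1048, and 7 and 34 for RH30, so the uneven count did not hold against H1048. For the YAP/TEAD targets 0 genes were above and 15 below of 18, or 0 and 10 of the 13 measured in all 4 lines. The DMSO level of SOX10 was 0 TPM in T84, 0.0675 TPM in H1048 and 0.0434 TPM in RH30, so a fall there could not be measured, and that of MITF was 0.197 TPM in T84, 6.01 TPM in H1048 and 3.24 TPM in RH30, with log2 fold changes of 0.05 in H1048 and 0.21 in RH30. MYC fell in the other lines as well, by 1.06 in T84, 0.75 in H1048 and 1.00 in RH30 on the log2 scale, and its difference of 0.06 ± 0.05 did not pass the threshold (adjusted p = 0.340).

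**Figure D4:**
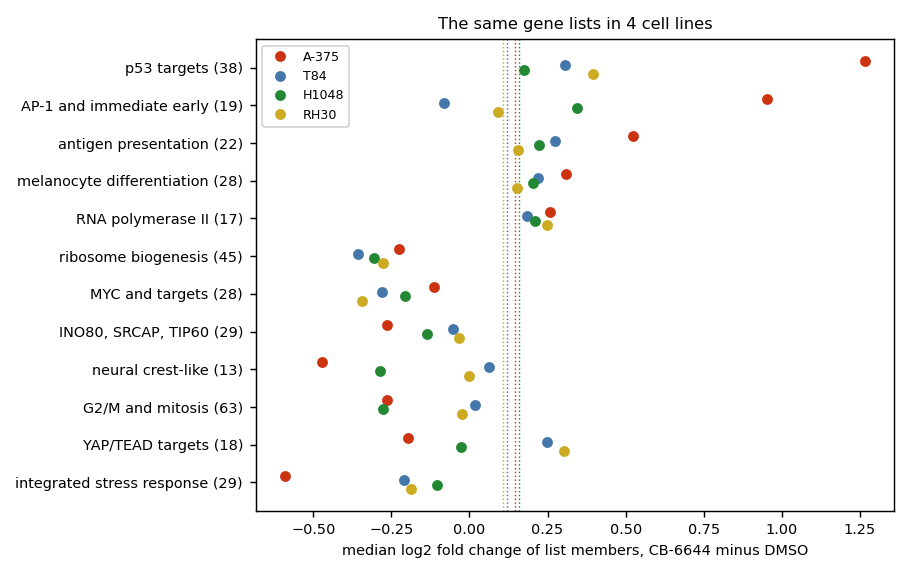
Median log2 fold change with CB-6644 (x axis) of the members of 12 gene lists (y axis, number of members in the fit of 32 libraries in parentheses) in A-375 (red), T84 (blue), H1048 (green) and RH30 (yellow). Dotted lines are each line's median over all 14250 genes, and the A-375 points stand furthest from the others for p53 targets at 1.27 and immediate early genes at 0.95.

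By the size of the difference from the mean, 6 genes in each direction were named, and 9 of these 12 were under 1 TPM in at least 1 other line. GDF15, ID2 and SLC7A11 were measured in all 4. The effect on ID2 was 0.77 in T84, 0.20 in H1048 and 0.83 in RH30, and A-375 lay 3.35 ± 0.09 above their mean. SLC7A11 differed in sign between lines, at 0.87 in T84, -0.56 in H1048 and -0.77 in RH30, and the difference of A-375 from their mean was -2.09 ± 0.09.

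The other 9 are given by their levels, with no comparison of effects, because each was under 1 TPM in at least 1 other line. A fall cannot be measured where a gene is near 0, although a rise can. NHLH2, a neuronal bHLH factor at chr1:115831344-115841126, read 0.248, 0.352, 0.188 and 0.398 TPM in the DMSO libraries and 15.2, 14.03, 14.3 and 15.2 TPM in the CB-6644 libraries in A-375, and its DMSO means were at 0 in the other 3 lines. The DMSO level of VASN was 0.0229 TPM in T84, 0.831 TPM in H1048 and 0.0774 TPM in RH30. For NPTX2 it was 38.2 TPM in T84, 0.0101 TPM in H1048 and 0.0182 TPM in RH30. LOC107987397, an uncharacterised gene, was at 0.0562 TPM in T84, 21.5 TPM in H1048 and 0.0183 TPM in RH30, and OR51B4 was at 0.0318 TPM in T84, 0 TPM in H1048 and 0.154 TPM in RH30. These genes were at or near 0 in the DMSO libraries of at least one other line, and NHLH2 was also near 0 in those of A-375. The DMSO level of CPA4 was 0.592 TPM in T84, 2.65 TPM in H1048 and 59.5 TPM in RH30, and that of TBX10, a T-box gene, was 0.0620 TPM in T84, 5.12 TPM in H1048 and 0.142 TPM in RH30. FAM20C, the kinase of secreted proteins, fell from 39.1 ± 3.83 to 8.04 ± 0.707 TPM in A-375, with DMSO levels of 0.107 TPM in T84, 30.6 TPM in H1048 and 0.442 TPM in RH30. BCAT1, which transaminates branched-chain amino acids, fell from 39.6 ± 0.585 to 9.17 ± 0.507 TPM in A-375, with DMSO levels of 0.155 TPM in T84, 0.189 TPM in H1048 and 295 TPM in RH30.

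**Figure D5:**
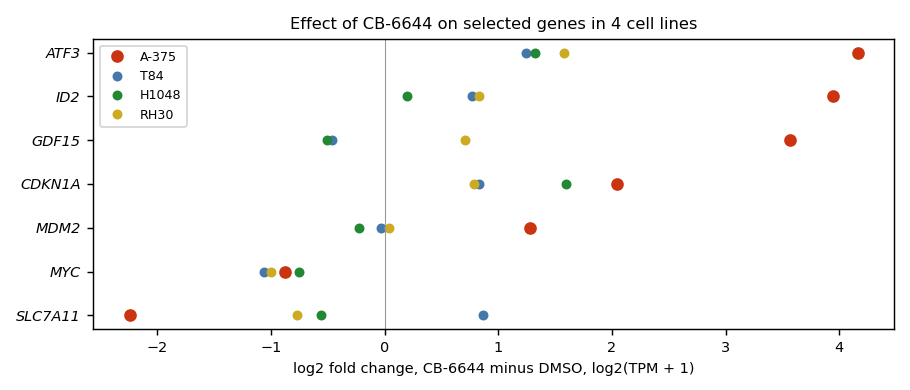
Log2 fold change with CB-6644 (x axis) of 7 genes (y axis) in A-375 (large red points), T84 (blue), H1048 (green) and RH30 (yellow), each from 4 libraries a group. The red points lie outside the range of the other lines for every gene shown except MYC, from -2.24 for SLC7A11 to 4.17 for ATF3.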

How the data were processed

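The libraries were single-end, poly-A selected RNA-seq. The authors pseudo-aligned reads with kallisto to hg38, summarised transcripts to genes with tximport and removed low-abundance transcripts at a limit not given in the sources used here, and they deposited TPM values. TPM keeps no read counts, so the depth behind each value is unknown and no counting interval is given. The study's own count-based test could not be applied to TPM. Groups and replicate numbers came from the labels.

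Values were tested as log2(TPM + 1) with limma 3.58.1 (R 4.3.3), empirical Bayes with a trend, over the 8 A-375 libraries, for genes with a mean TPM of at least 1. P-values are two-sided, limma's, Benjamini-Hochberg adjusted over all genes tested, with a threshold of 0.05. Fold changes are on the log2(TPM + 1) scale, which understates changes of low genes. Values after ± are the SD over 4 libraries for TPM and the SE for log2 fold changes. Differences between lines were contrasts of an 8-group fit of 32 libraries. Lists were described by counts and medians, with no set test. The script was tested on simulated data. Same-numbered DMSO and CB-6644 libraries did not deviate together (Pearson r of -0.002, 0.031, -0.068 and 0.002), so replicate numbers were not treated as pairs.

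The members and the 42 gene lists were chosen with earlier results of these data known. Named genes were RUVBL1, RUVBL2, SOX10, MITF, MYC, KLF5, CDKN1A and MDM2, with some eligible genes not reported here, and up to 4 risen and 4 fallen members of each list with the largest changes, provided that the adjusted p passed, the groups did not overlap and the higher group averaged at least 5 TPM. By the same conditions the 10 largest rises and falls overall were eligible, with the 6 largest differences from the other lines in each direction. Promoters are 250 bases before to 50 after RefSeq starts on GRCh38.p14, matched for 10613 tested genes. Alternatives were another pseudocount, other filters, median-of-ratios scaling, limma without trend, all 32 libraries in the fit, a replicate block and leaving out each library.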

Additional observations from a re-analysis of the deposited data

Results flagged for a closer look

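Within a group of 4 libraries, 10 of 266 gene and group combinations given above had 1 library far from the other 3 (a gap above Dixon's critical value), where chance flags about 1 in 20 groups. NEK2 was at 69.62 TPM in DMSO library 4, against 67.21 to 67.48 TPM in the other libraries of its group. CDC25C was at 16.06 TPM in DMSO library 2, against 17.41 to 17.49 TPM in the other libraries of its group. CCNE1 was at 34.43 TPM in CB-6644 library 2, against 41.55 to 42.06 TPM in the other libraries of its group. ITGB4 was at 3.56 TPM in CB-6644 library 3, against 3.043 to 3.123 TPM in the other libraries of its group. FOS was at 13.27 TPM in CB-6644 library 4, against 11.22 to 11.54 TPM in the other libraries of its group. CCT2 was at 607.1 TPM in DMSO library 1, against 592.4 to 594.1 TPM in the other libraries of its group. NEU1 was at 51.77 TPM in CB-6644 library 1, against 56.88 to 57.37 TPM in the other libraries of its group. IFI6 was at 76.47 TPM in CB-6644 library 4, against 69.37 to 70.22 TPM in the other libraries of its group. ID2 was at 53.63 TPM in CB-6644 library 1, against 58.02 to 58.46 TPM in the other libraries of its group. VEGFA was at 34.55 TPM in DMSO library 1, against 32.9 to 33.13 TPM in the other libraries of its group.

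The effect of CB-6644 in A-375 differed from the mean effect in T84, H1048 and RH30 by an interaction test (limma over 32 libraries, Benjamini-Hochberg adjusted p under 0.05) in the following genes described above. On the log2 scale the A-375 effect was higher by 3.66 for GDF15 (adjusted p = 1.69e-25), 3.35 for ID2 (adjusted p = 9.43e-23), 1.35 for MDM2 (adjusted p = 1.34e-16), 0.97 for CDKN1A (adjusted p = 6.65e-19) and 2.78 for ATF3 (adjusted p = 6.06e-26). The difference, A-375 minus the mean, was negative at -2.09 for SLC7A11 (adjusted p = 2.14e-18). Each of these genes was at 1 TPM or more in all 4 lines. GDF15, ID2 and SLC7A11 had been named for the size of this difference, so their passing was fixed in advance. Over all 14250 genes the A-375 effect was above the mean of the others in 31.4% and below it in 29.1%.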

How the results depend on the processing

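The count of 6821 genes higher and 3930 lower was 6809 and 3920 with a pseudocount of 0.1, 8862 and 4042 with no filter, 5252 and 3498 at a mean TPM of at least 5, 6777 and 3892 without the trend, 7169 and 3896 with all 32 libraries, and 6580 to 6796 and 3790 to 3869 when 1 library was left out. With the replicate number as a block it was 6769 and 3884, and of the named genes only NAMPT lost its call under the block. Median-of-ratios scaling gave 4803 and 5817. Under that scaling 5 named genes turned direction, to -0.08 for PRKDC, -0.11 for NOP56, -0.03 for MNT, -0.16 for NAMPT and -0.06 for CCT8, and POLR2E, ATM, EPC1, BOP1, CRIM1 and FADS2 no longer passed the threshold. Their changes before scaling were small, and the scaling divides all values of a library by the same factor. On the log2(TPM + 1) scale low genes shift less, from -0.88 to -1.06 for MYC against -0.41 to -0.63 for SOX10. RUVBL2 was not called, and its log2 fold change was 0.04 with DMSO libraries 1 and 2 left out, 0.01 without DMSO replicate 1 and -0.05 without DMSO replicate 4. NAMPT also missed the threshold without the trend, with all 32 libraries and when most single libraries were left out, and PRKDC missed it with all 32 libraries; the cause was not tested. The fits without a pair of DMSO libraries, and the limit of 1 TPM in all 4 lines, were chosen after seeing the data. Without DMSO libraries 3 and 4 MNT missed the threshold, and NAMPT missed it without either pair. No statement can be made about read depth, which TPM does not keep.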

Other observations

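Histone genes were not among the lists described above, and their names were collected after their values had been seen. Of the 44 tested names that start with HIST, 3 have the same values as another name in every library, which left 41 distinct measurements. Of these 34 rose with CB-6644 in A-375, 0 fell and 7 did not pass the threshold (limma, adjusted p under 0.05), and 26 rose at least 2-fold. The median log2 fold change was 1.365, against 0.16 over all tested genes. In the fit of all 32 libraries the medians of 40 such measurements were 1.39 in A-375, 1.05 in T84, 0.82 in H1048 and 0.85 in RH30. Several of these genes are near-identical copies that share reads. Transcripts of replication-dependent histones normally lack a poly-A tail, and the libraries were poly-A selected.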
